A study of Drosophila melanogaster with 18 samples.

Results

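RNA of whole-head lysate was compared between Δmimi and wild-type flies in 6 libraries, 3 of each genotype, taken by their labels from the 18 libraries of the study. The other 12 libraries hold 2 granule fractions pelleted from the same preparations and serve here only as a second reading of the genes that differ in lysate. The Δmimi flies carry 1 allele made by CRISPR-Cas9 with 2 guide RNAs, which deletes most of CR31451, the locus that encodes mimi, a long noncoding RNA, and the wild-type flies were w1118. Adult flies, which in this study were of both sexes, were kept at 25 °C without treatment and anaesthetized, their heads were knocked off in a blender and sieved from the other body parts, so each library is a pool of many heads. Whether the deletion line was crossed into the w1118 background is not given in the sources used here, so the effect of the deletion and a difference between the 2 lines at other loci cannot be told apart.

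Long noncoding RNAs are transcripts that work without being translated, and some of them hold RNA-binding proteins together in granules, condensed bodies of RNA and protein that store or silence messages. The study examined mimi as an RNA of adult neurons found in such granules, and the lysate comparison asks which RNAs of the head change in amount when mimi is missing. In these bulk samples fewer cells of a type and less RNA per cell cannot be told apart. The level of each gene is given as a normalised read count in CPM, relative to TMM-scaled library sizes. CPM values are not corrected for gene length, so they were compared between genotypes for one gene and not between genes.

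The guides and the oligonucleotide that lies at the deleted end are shown because they fix which stretch of chromosome 3R differs by design. Capitals in the guides mark the 3 bases beyond the position where Cas9 cuts.
mimi guide 1: tggtagtaccatgaggcGTG
mimi guide 2: agtgttaattgtaagatCCC
reverse primer of the mimi transgene: cctGGGATCTTACAATTAACA
Capitals in the primer mark the 18 bases that are the reverse complement of the end of guide 2. On the primer's reverse complement the guide is followed by AGG, the form of the motif that Cas9 requires next to its target. All of these oligonucleotides come from the study's own list.

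The deletion was visible in the read counts. mimi (lncRNA:mimi, FBgn0051451, chromosome 3R, 23983503 to 23985065, plus strand) had 16.2, 11.8 and 12.1 CPM in Δmimi lysate, against 1521, 953 and 1291 CPM in wild-type lysate. The lowest wild-type library lay far above the highest Δmimi library. The log2 fold change was -6.55 ± 0.27 (SE), with an adjusted p of 0.000103 in edgeR. Reads were counted over the annotated gene as a whole, any part outside the deletion included.

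Total counts ranged from 5007645 to 6584532 in Δmimi lysate and from 5598380 to 7798946 in wild-type lysate. At this depth 3 reads in a library, the limit that was treated as not detected, stood for 0.403 to 0.569 CPM, which covers counting error only. Between 12511 and 12711 genes had a read in the Δmimi libraries and between 12455 and 12750 in the wild-type libraries. Head markers were abundant in every library, with 58567 to 83188 CPM in Δmimi and 60896 to 79094 CPM in wild type for the summed photoreceptor genes and 8381 to 12377 CPM in Δmimi and 10588 to 14358 CPM in wild type for the summed pan-neuronal genes. Summed muscle genes, which the head's own muscles also express, gave 41391, 87193 and 43879 CPM in Δmimi and 35014, 72643 and 36897 CPM in wild type, so that replicate 2 was highest in both genotypes. None of the 21 genes matched in the eggshell list passed the filter on low counts, and 4 of 31 testis genes did. Of 30 male accessory gland genes 4 passed, and of 48 midgut digestion genes 7. Summed accessory gland genes gave 660 to 681 CPM in Δmimi and 499 to 715 CPM in wild type. Summed midgut genes gave 171 to 196 CPM in Δmimi and 174 to 252 CPM in wild type. The part of tissue other than head in these levels was not tested. The eggshell list lacks clos (closca), whose name did not match there and which is given below. Mitochondrially encoded transcripts took 4.23% to 5.11% of the reads in Δmimi and 3.80% to 4.29% in wild type (exact permutation test, two-sided, p = 0.2). With 3 libraries against 3 such a test cannot give a p below 0.1.

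Of 9771 genes tested, 84 were called higher in Δmimi lysate and 76 lower, which is 0.86% and 0.778% of the genes. Calls rested on the quasi-likelihood test of edgeR, with an adjusted p below 0.05 and a log2 fold change beyond 0.5 in either direction. The median log2 fold change of all genes was -0.01. An unadjusted p under 0.05 was reached by 1357 genes. For 1863 genes, 19.1% of those tested, the 3 Δmimi libraries all lay above (9.24%) or all below (9.82%) the 3 wild-type libraries, and this held for all 160 called genes. Most calls were large, with 76 of the 84 higher genes and 50 of the 76 lower genes past 2-fold and 40 and 28 of them past 4-fold. The share of genes called was 2.48% among the 1129 genes under a mean of 5 CPM and 1.22% among the 2130 genes at 100 CPM or more, although the median SE was 0.37 at the low end and 0.15 at the high end.

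**Figure D1:**
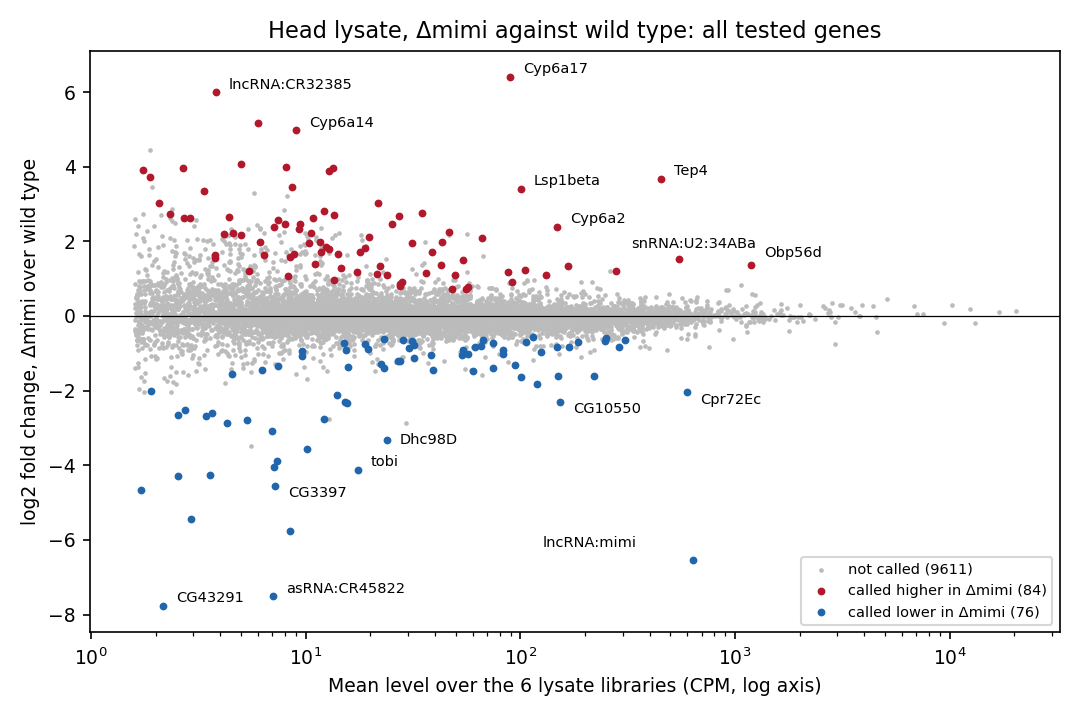
Log2 fold change of each of the 9771 genes tested (Δmimi over wild-type lysate, vertical axis) against its mean level in CPM (horizontal log axis), with the 84 genes called higher and the 76 called lower in colour. mimi lies at -6.55 and Cyp6a17 at 6.40, and the called genes are spread over the whole range of levels.

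Libraries with the same replicate number deviated together, least so for number 3 (correlation 0.31). The labels do not say whether the 2 genotypes of one number were prepared together. Fitting the number as a block raised the calls to 531 higher and 393 lower (5.43% and 4.02% of the genes, 9.46% together). All 160 calls of the fit without the block were among them. In the other direction, leaving out 1 library lowered the counts in 5 of 6 cases. The fit without Δmimi replicate 1 gave 187 higher and 80 lower genes, and the fit without Δmimi replicate 3 gave 43 higher and 30 lower genes. Of the calls that could be tested again, 28, 65 and 87 were lost without Δmimi replicate 1, 2 and 3, and 80, 45 and 85 without wild-type replicate 1, 2 and 3. For 63 of the 160 genes the call was kept in each of these 6 fits and each other alternative that could test the gene. None of the 160 changed direction in any of them. Some genes of very low count could not be tested in all 6 fits. Cyp4p2 and eater gave a value in 8 of the 13 alternatives, and Argk2, 28SrRNA-Psi:CR40741 and lncRNA:CR44042 in 10. For a gene named here whose call was lost in any of the 6 fits, the number of fits that lost it is given.

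The called genes were read again in the granule fractions, which are further fractions of the same preparations and not independent flies. Of the 84 higher genes, 82 were tested in granules 1, where all 82 were above 0 and 73 were called higher again. Of the 76 lower genes, 72 were tested there, all 72 were below 0 and 62 were called lower again. In granules 2, 72 of 82 higher genes and 58 of 71 lower genes were called in the same direction. No gene was called in the opposite direction in either fraction. In granules 1, 5.69% of the genes tested in both were called at all, and in granules 2 5.16%.

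Enzymes of detoxification held the largest named group of calls. Cytochrome P450 enzymes oxidize steroids, fatty acids, plant toxins and insecticides, and many lie in tandem arrays of related genes. Of 85 P450 genes with a count entry, 70 were tested, 10 were called higher and 5 lower, against 1.64% of all genes called in either direction. Their median log2 fold change was 0.09, so that the family did not shift as a whole.

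Cyp6a17, a P450 of the brain known for its part in temperature preference, had 187, 172 and 169 CPM in Δmimi, against 1.40, 2.42 and 2.42 CPM in wild type. All wild-type libraries were near the limit of detection and all Δmimi libraries high, and this log2 fold change of 6.40 ± 0.19 (SE) with an adjusted p of 2.44e-05 in edgeR was the largest of the 84. Cyp6a2, an enzyme linked to insecticide resistance, had 245, 244 and 254 CPM in Δmimi, against 45.4, 46 and 51.5 CPM in wild type. The libraries of one genotype were almost alike, and the log2 fold change was 2.38 ± 0.10 (SE), with an adjusted p of 0.000123 in edgeR. Cyp6a14 had 17.4, 14.8 and 20.3 CPM in Δmimi, against 0.421, 0.807 and 0.346 CPM in wild type, a log2 fold change of 4.97 ± 0.31 (SE) with an adjusted p of 0.000679 in edgeR. Cyp4e3 rose by a log2 fold change of 2.68 (SE 0.26), with 42.0 to 49.9 CPM in Δmimi and 5.19 to 10.6 CPM in wild type. Each of these calls held without any 1 library.

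The 5 P450 genes that fell had log2 fold changes between -1.60 and -1.05. Cyp9b2 had 110, 98.4 and 119 CPM in Δmimi, against 305, 406 and 285 CPM in wild type, a log2 fold change of -1.60 ± 0.16 (SE) with an adjusted p of 0.00387 in edgeR. Cyp6a20, which is known to act on male aggression, had 74.0, 85.5 and 62.8 CPM in Δmimi, against 202, 255 and 219 CPM in wild type, a log2 fold change of -1.60 ± 0.15 (SE) with an adjusted p of 0.00264 in edgeR. Cyp305a1, Cyp6a8 and Cyp4p1 were the other lower P450 genes, with log2 fold changes of -1.05, -1.40 and -1.30. None of the 5 calls was lost when a library was left out. Of the other higher genes, Cyp6a22, Cyp6d2, Cyp9h1 and Cyp309a2 lost their calls in 3, 2, 4 and 4 of the 6 fits.

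Conjugating enzymes add glutathione or sugar to foreign compounds after oxidation. Of 32 glutathione S-transferase genes tested, edgeR called 4 higher and 0 lower, against 0.86% and 0.778% of all genes. At an unadjusted p under 0.05 in edgeR, 6 were above 0 and 4 below 0, and DESeq2 called 4 and 1. Mgstl, the microsomal form, had 176, 182 and 183 CPM in Δmimi, against 77.3, 93.2 and 82.3 CPM in wild type, a log2 fold change of 1.10 ± 0.11 (SE) with an adjusted p of 0.00298 in edgeR. GstE5 rose by 1.39 (SE 0.16) on the log2 scale and held in all fits, while the calls of GstE1 (log2 fold change 0.84) and GstZ1 (1.08) were each lost in 5 of 6 fits. GstD1, the abundant enzyme that clears DDT, had 272, 292 and 252 CPM in Δmimi, against 378, 438 and 397 CPM in wild type, and was not called (log2 fold change -0.57, edgeR adjusted p = 0.0768, and 0.000491 with the replicate block). Of 19 sugar-transferring UGT genes tested, 2 were called higher and 1 lower, against 0.86% and 0.778% of all genes. Ugt50B3 (log2 fold change 1.36) and Ugt37D1 (0.91) rose and Ugt36E1 fell by 1.12 on the log2 scale. The calls of Ugt37D1 and Ugt36E1 were lost in 4 and 3 fits.

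**Figure D2:**
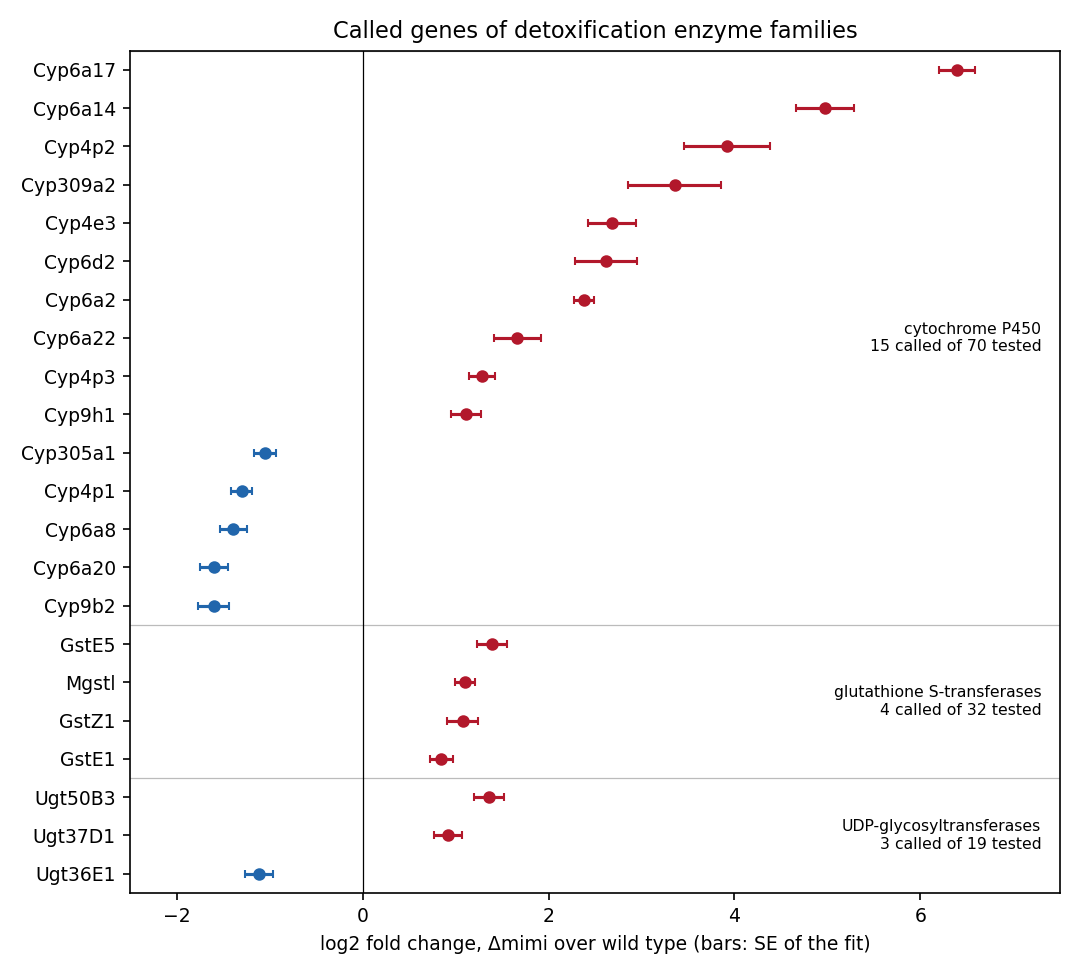
Log2 fold change (Δmimi over wild-type lysate, horizontal axis, with SE as bars) of the 15 P450, 4 glutathione S-transferase and 3 UGT genes called, 1 gene to a line. The P450 genes reach from -1.60 for Cyp9b2 and Cyp6a20 to 6.40 for Cyp6a17, and the 4 glutathione S-transferase genes lie between 0.84 and 1.39.

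Several called genes lay side by side and moved in opposite directions. Along the P450 array on chromosome 2R, Cyp6a22 (14871366 to 14873705, log2 fold change 1.66) and Cyp6a17 (14873953 to 14875739) were higher, Cyp6a23, the next gene, was at -0.90 without a call (edgeR adjusted p = 0.0767, and 0.000686 with the replicate block), and Cyp6a20 (14882118 to 14884046) and Cyp6a8 (14887171 to 14889010, -1.40) were lower. Cyp6a19, inside the same array, was at 1.90 with 5.81 to 21.3 CPM in Δmimi and 2.52 to 7.12 CPM in wild type, which overlap (edgeR adjusted p = 0.187, and 0.00117 with the replicate block). Summed over the 7 genes of this array from Cyp6a22 to Cyp6a8, Δmimi had 432 ± 10.05 CPM and wild type 504 ± 43 CPM (SD, n = 3 each). Over all 10 Cyp6a genes tested, with Cyp6a2 and 2 others that lie elsewhere on the arm, the sum was 734 ± 3.58 CPM in Δmimi and 582 ± 46.2 CPM in wild type.

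The Cyp4p array on chromosome 2R showed the pattern within 3 genes. Cyp4p2 (9237512 to 9239831) had 2.90, 2.99 and 3.99 CPM in Δmimi and 3 reads or fewer in each wild-type library, at least 7.35-fold higher against that limit. Cyp4p1 (9240041 to 9242139) had 53.8, 56.0 and 53.5 CPM in Δmimi, against 124, 128 and 151 CPM in wild type. Cyp4p3 (9242320 to 9244410) had 19.7, 21.6 and 20.7 CPM in Δmimi, against 7.71, 9.14 and 8.65 CPM in wild type, a log2 fold change of 1.28 ± 0.14 (SE) with an adjusted p of 0.00502 in edgeR. The outer genes were higher and the middle one lower, and the sum of the 3 was 78.4 ± 2.11 CPM in Δmimi and 143 ± 14.9 CPM in wild type (SD, n = 3 each). Reads of closely related genes can be assigned to the wrong copy, so the split between members of an array is less certain than their sum.

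The same held for 2 pairs of chemosensory genes on chromosome 3. Ir75b (3L, 17818073 to 17820193), a receptor of the antenna for volatile acids, had 19.9, 15.6 and 13.7 CPM in Δmimi, against 4.21, 3.76 and 4.84 CPM in wild type, a log2 fold change of 1.94 ± 0.21 (SE) with an adjusted p of 0.00475 in edgeR. Its neighbour Ir75a (3L, 17815570 to 17817921), the receptor for acetic acid, had 2.45, 1.93 and 2.47 CPM in Δmimi, against 7.57, 5.51 and 7.26 CPM in wild type, a log2 fold change of -1.56 ± 0.26 (SE) with an adjusted p of 0.0309 in edgeR, and this call was lost in 4 fits. Obp99b and Obp99d on 3R differed likewise, with 43.3 to 58.2 CPM in Δmimi and 8.82 to 20.5 CPM in wild type for Obp99b and 0.611 to 2.28 CPM in Δmimi and 6.73 to 12.6 CPM in wild type for Obp99d. The calls of this pair were lost in 5 and 4 fits.

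Another array encodes kinase-like proteins of a family that includes CHKov1, on chromosome 3R. CG10550 (25306407 to 25308391) had 48.1, 58.8 and 49.3 CPM in Δmimi, against 219, 306 and 241 CPM in wild type, a log2 fold change of -2.29 ± 0.16 (SE) with an adjusted p of 0.000931 in edgeR. CG31436 (25304137 to 25305651), the gene beside it, had 80.7, 78.9 and 81.2 CPM in Δmimi, against 24.0, 32.8 and 27.7 CPM in wild type, a log2 fold change of 1.51 ± 0.14 (SE) with an adjusted p of 0.00248 in edgeR. CG10514 and CG11892, further along, fell by 1.39 and 1.21 on the log2 scale, and their calls were lost in 2 and 4 fits. CHKov1 was at 0.62 and was not called (edgeR adjusted p = 0.0648, and 0.0022 with the replicate block).

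Called genes lay near each other more often than the genes that were not called. Of the 159 called genes with a position, 56 (35.2%) had another called gene within 20 kb, against 839 of 9419 genes that were not called (8.91%). For 39 of the 56 a called neighbour moved in the same direction. By chromosome arm the share of genes called was 0.824% on X, 1.65% on 2L, 2.30% on 2R, 1.71% on 3L and 1.73% on 3R. On chromosome 4 edgeR called 0 of 88 genes, 8 of which had an unadjusted p under 0.05.

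The end of 2R next to the centromere stood apart, which was seen after the values were known. Its first 8 tested genes, between 326768 and 1443935, were all lower in Δmimi with no overlap of the libraries, and 5 of them were called. l(2)41Ab, a gene needed for viability, had 5.50, 4.39 and 5.69 CPM in Δmimi, against 28.5, 22.2 and 27.5 CPM in wild type, a log2 fold change of -2.32 ± 0.18 (SE) with an adjusted p of 0.00133 in edgeR. CG40191 had 90.9, 83.6 and 80.1 CPM in Δmimi, against 166, 165 and 162 CPM in wild type, a log2 fold change of -0.96 ± 0.10 (SE) with an adjusted p of 0.00359 in edgeR. Both calls held without any 1 library. Yeti, a chromatin protein, fell by 0.90 on the log2 scale, lncRNA:CR44042 by 2.02 and the pseudogene CR40190 by 2.67, and these calls were lost in 4, 5 and 5 fits. rl, which encodes the MAP kinase ERK, had 124, 82.9 and 98.7 CPM in Δmimi, against 194, 143 and 186 CPM in wild type (log2 fold change -0.78, edgeR adjusted p = 0.105, and 0.000108 with the replicate block).

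The run ended at BckdhB, the next gene, at 0.23. Runs of consecutive tested genes that did not overlap in one direction were otherwise 5 genes long at most, in 1 case on X, and 4 long in 5 cases. At the ends next to the centromere of 2L, 3L, 3R and X, between 0 and 1 of the 8 nearest genes lay lower without overlap, and the medians were between -0.05 and 0.07, against -1.23 on 2R.

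**Figure D3:**
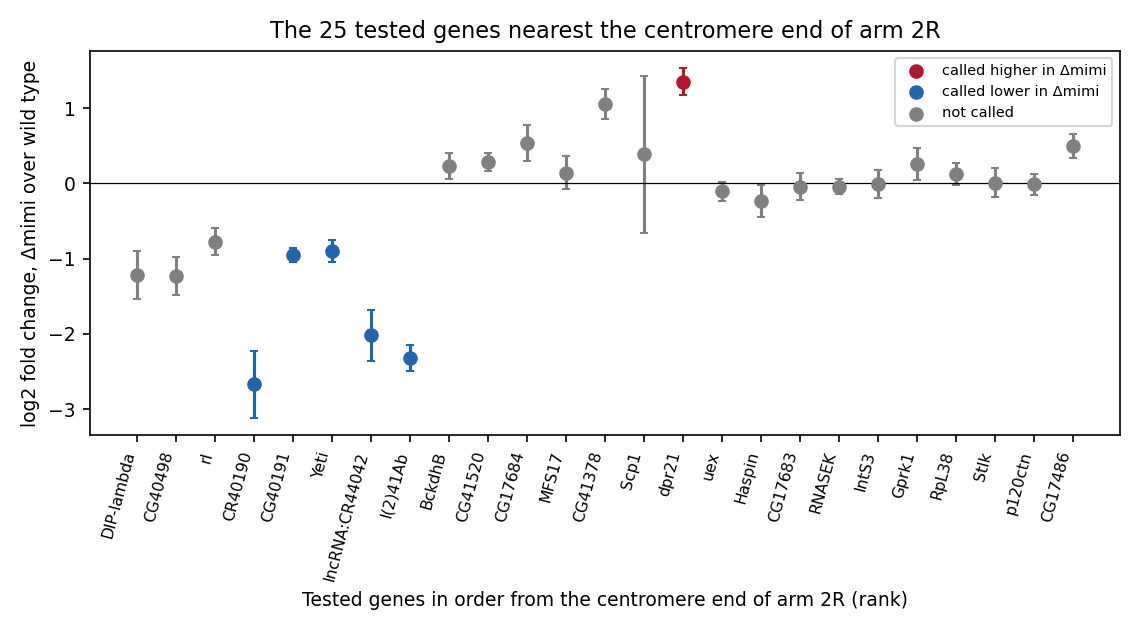
Log2 fold change (Δmimi over wild-type lysate, vertical axis, with SE as bars) of the 25 tested genes nearest to the centromere end of 2R, in their order along the arm, with called genes in colour. The first 8 genes lie between -2.67 and -0.78, BckdhB after them lies at 0.23, and dpr21, the only called gene of the rest, lies at 1.35, a call lost in 2 of the fits without 1 library.

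Around mimi itself the share of genes called was near that of all genes, 1.64% without and 9.46% with the replicate block. Within 50 kb 15 other genes were tested, edgeR called 0 of them and 0 had an unadjusted p under 0.05, although the replicate block called 1. Within 200 kb 1 of 55 genes was called, 6 with the replicate block, and 6 had an unadjusted p under 0.05. Within 1000 kb 2 of 220 were called, 20 with the replicate block, and 26 had an unadjusted p under 0.05. CG31140, whose annotation ends just before mimi begins on the same strand, had 178, 131 and 121 CPM in Δmimi, against 204, 158 and 180 CPM in wild type. It was not called (log2 fold change -0.34, edgeR adjusted p = 0.458, and 0.0194 with the replicate block, which did not call it either). The paper states that the 3' untranslated region of CG31140 reaches into the mimi locus. The part of CG31140 reads in the mimi counts was not tested. The 2 called neighbours differed strongly. Root, which encodes the rootletin fibre at the base of sensory cilia, lies at 24113286 to 24128193 and had 77.3, 60.6 and 93.8 CPM in Δmimi, against 17.5, 15.7 and 15.2 CPM in wild type, a log2 fold change of 2.25 ± 0.18 (SE) with an adjusted p of 0.00166 in edgeR. GILT3, which encodes a lysosomal thiol reductase, lies at 23677358 to 23678421 and had 0.917, 0.527 and 0.949 CPM in Δmimi, against 12.5, 15.2 and 12.6 CPM in wild type, a log2 fold change of -4.04 ± 0.27 (SE) with an adjusted p of 0.000862 in edgeR.

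**Figure D4:**
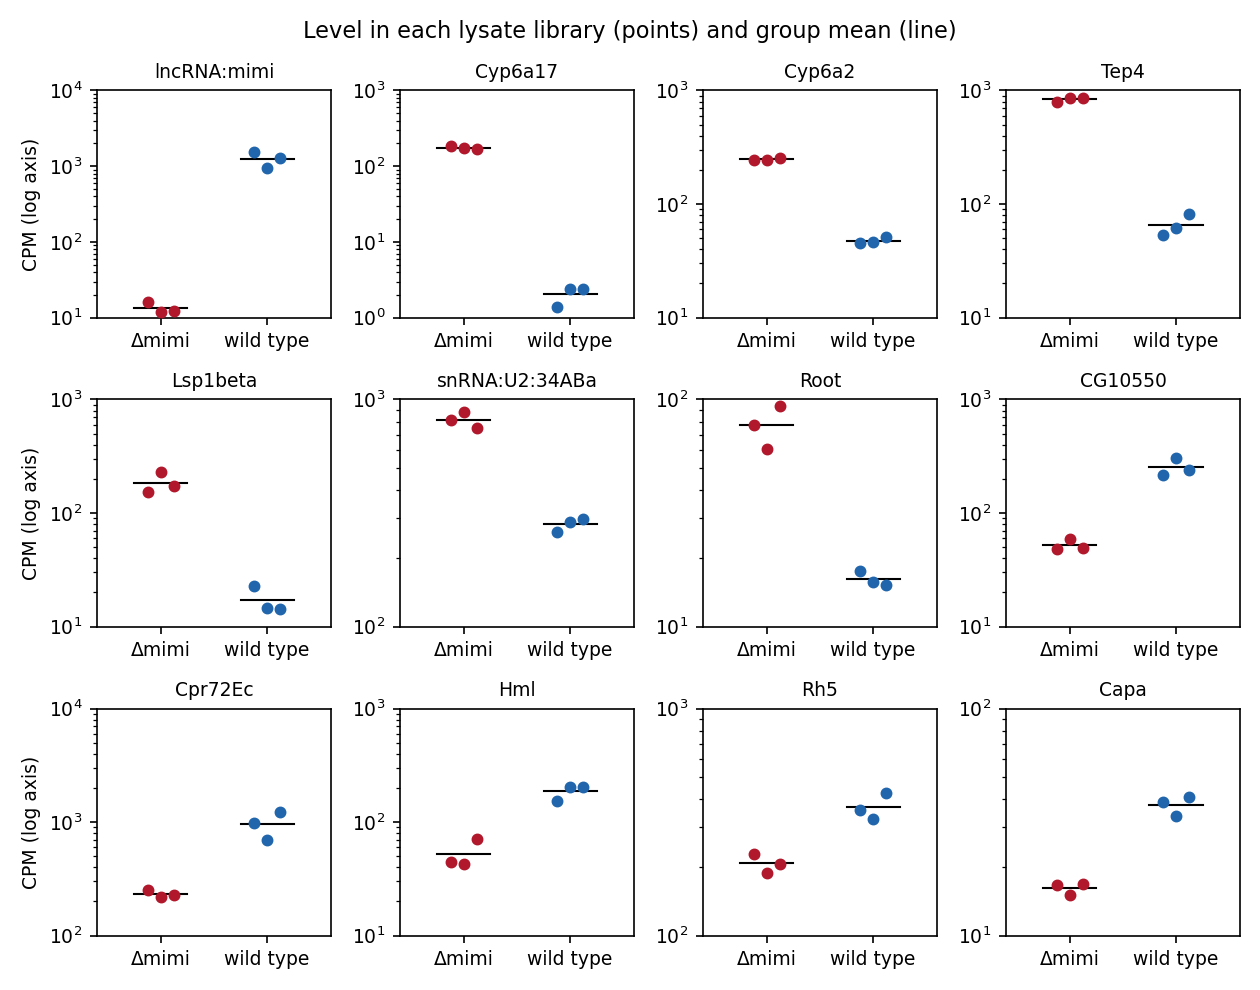
CPM of 12 genes in each of the 3 Δmimi libraries (left in each panel) and the 3 wild-type libraries (right), on log axes, with the mean as a line. In each panel the genotypes do not overlap, for example Tep4 with 789 to 863 CPM in Δmimi and 53.3 to 81.3 CPM in wild type and Hml with 42.7 to 71.0 CPM in Δmimi and 154 to 205 CPM in wild type.

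The fat body of the head is the fly's counterpart of liver and adipose tissue, and it secretes storage, feeding and defence proteins into the blood. Of the 28 head fat body genes tested, edgeR called 4 higher and 0 lower, against 0.86% and 0.778% of all genes. At an unadjusted p under 0.05 in edgeR, 7 were above 0 and 2 below 0. DESeq2 called 4 and 0 of these 28. The replicate block called 9 and 2, against 5.43% and 4.02% of all genes. The list is not complete for this tissue, and tobi, a fat body gene outside it, fell by 4.12 on the log2 scale.

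Lsp1beta, a storage protein made in quantity by larvae, had 152, 228 and 172 CPM in Δmimi, against 22.7, 14.5 and 14.4 CPM in wild type, a log2 fold change of 3.41 ± 0.24 (SE) with an adjusted p of 0.000931 in edgeR. Its relatives Lsp1gamma, with 3.67, 21.3 and 6.45 CPM in Δmimi and 0.281, 2.69 and 0 CPM in wild type, and Lsp1alpha, with 3.06, 6.15 and 3.42 CPM in Δmimi and 0, 1.75 and 0.346 CPM in wild type, did not overlap but were not called (edgeR adjusted p = 0.203 and 0.223, and 0.000393 and 0.00693 with the replicate block). takeout (to), a secreted protein of feeding and courtship behaviour, had 274, 234 and 210 CPM in Δmimi, against 110, 83.7 and 89.4 CPM in wild type, a log2 fold change of 1.34 ± 0.15 (SE) with an adjusted p of 0.00605 in edgeR. Pepck2, an enzyme of the gluconeogenic family, rose by 2.32 on the log2 scale and lost its call in 2 fits. The yolk protein gene Yp1, read in female fat body, had 864, 810 and 771 CPM in Δmimi and 429, 1192 and 390 CPM in wild type, which overlap.

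Peptides of the humoral immune response moved both ways. Of 28 antimicrobial peptide and Bomanin genes tested, 2 were called higher and 1 lower, against 0.86% and 0.778% of all genes. With the replicate block 5 and 5 were called, against 5.43% and 4.02% of all genes. BomBc1, a short peptide induced through the Toll pathway, had 41.3, 41.6 and 45.0 CPM in Δmimi, against 5.75, 6.86 and 10.5 CPM in wild type, a log2 fold change of 2.48 ± 0.22 (SE) with an adjusted p of 0.00192 in edgeR. Its neighbour BomS1 rose by 1.19 on the log2 scale and lost its call in 4 fits, whereas BomS6 had 27.2, 28.5 and 47.8 CPM in Δmimi, against 51.8, 70.6 and 96.1 CPM in wild type, without a call (log2 fold change -1.08, edgeR adjusted p = 0.146, and 6.01e-05 with the replicate block). Defensin (Def) had 35.2, 72.2 and 39.7 CPM in Δmimi, against 121, 147 and 186 CPM in wild type, a log2 fold change of -1.63 ± 0.29 (SE) with an adjusted p of 0.0456 in edgeR, and its call was lost in 5 fits. AttA was at 2.08 and the stress peptide TotC at -2.87, both without a call (edgeR adjusted p = 0.157 and 0.126, and 0.000189 and 0.002 with the replicate block) and both with libraries of one genotype several-fold apart.

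Of 26 genes of immune recognition and stress tested, TotC among them, edgeR called 1 higher and 0 lower, against 0.86% and 0.778% of all genes. At an unadjusted p under 0.05 in edgeR, 3 were above 0 and 5 below 0. DESeq2 called 1 and 4 of them. The replicate block called 2 and 5, against 5.43% and 4.02% of all genes. The 1 call, Tep4, a complement-like protein of the thioester family, had 789, 863 and 858 CPM in Δmimi, against 53.3, 61.6 and 81.3 CPM in wild type. Every Δmimi library was high, and the log2 fold change was 3.68 ± 0.19 (SE), with an adjusted p of 0.000292 in edgeR.

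Genes of blood cells formed a group chosen after their values were seen, so its count of calls cannot be read as an excess. Hemocytes of the fly clot blood and engulf microbes. Of 13 such genes tested, edgeR called 0 higher and 2 lower, against 0.86% and 0.778% of all genes, with 0 above 0 and 4 below 0 at an unadjusted p under 0.05. DESeq2 and the replicate block each called 0 higher and 4 lower, and over all genes the block called 5.43% higher and 4.02% lower. Hml, the clotting protein hemolectin, had 44.8, 42.7 and 71.0 CPM in Δmimi, against 154, 203 and 205 CPM in wild type, a log2 fold change of -1.83 ± 0.22 (SE) with an adjusted p of 0.00801 in edgeR, and its call was lost without wild-type replicate 3. eater, a phagocytic receptor, had 2 reads in 1 Δmimi library and 0 in the other Δmimi libraries, against 3.09, 3.76 and 3.11 CPM in wild type, at least 6.41-fold lower against a limit of 3 reads per library. NimC1, a related receptor, had 2.29, 3.86 and 7.59 CPM in Δmimi, against 9.96, 16.7 and 13.5 CPM in wild type, and was not called (edgeR adjusted p = 0.136, and 0.00247 with the replicate block). The summed level of the list overlapped, with 711, 1047 and 733 CPM in Δmimi and 1032, 1472 and 979 CPM in wild type. For each replicate number the sum was lower in Δmimi.

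In the chemosensory families, odorant-binding proteins carry odours in the fluid around sensory neurons and the receptors detect them. Of 31 odorant-binding protein genes tested, 3 were called higher and 1 lower, against 0.86% and 0.778% of all genes, and 7 and 4 with the replicate block, against 5.43% and 4.02% of all genes. Obp56d had 1356, 2139 and 1642 CPM in Δmimi, against 520, 830 and 630 CPM in wild type. Replicate 2 was highest in both genotypes, and the log2 fold change of 1.37 ± 0.24 (SE) with an adjusted p of 0.039 in edgeR lost its call in 4 fits. Obp8a had 19.6, 20.02 and 14.6 CPM in Δmimi, against 5.19, 4.84 and 6.57 CPM in wild type, a log2 fold change of 1.71 ± 0.20 (SE) with an adjusted p of 0.00721 in edgeR.

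Of the 60 odorant receptor genes 28 passed the filter, and edgeR called 0 of them, with 6 above 0 and 0 below 0 at an unadjusted p under 0.05. DESeq2 called 1 higher, and the replicate block called 2 higher, against 5.43% of all genes. Above 0 lay 22 of the 28, against 48.7% of all genes. Orco, the co-receptor that all odorant receptors of this family need, had 166, 118 and 131 CPM in Δmimi, against 115, 92.8 and 100.0 CPM in wild type. It was not called (log2 fold change 0.43, edgeR adjusted p = 0.263, and 0.00335 with the replicate block, where the fold change was also under the limit). Ir76a, an antennal receptor for amines, had 6.57, 2.81 and 5.88 CPM in Δmimi, against 28.1, 18.8 and 29.4 CPM in wild type. All Δmimi libraries were low, and the log2 fold change of -2.31 ± 0.32 (SE) with an adjusted p of 0.0147 in edgeR lost its call in 3 fits.

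In the eye, 1 of 45 photoreceptor genes was called, against 1.64% of all genes. Rh5, the blue-sensitive opsin of inner photoreceptors, had 229, 188 and 207 CPM in Δmimi, against 359, 326 and 423 CPM in wild type, a log2 fold change of -0.83 ± 0.14 (SE) with an adjusted p of 0.0381 in edgeR, lost in 4 fits. The opsins of the ultraviolet-sensitive cells differed from each other without a call. Rh4 had 1313, 1017 and 1032 CPM in Δmimi, against 749, 623 and 721 CPM in wild type (log2 fold change 0.68, edgeR adjusted p = 0.0969), and Rh3 had 629, 514 and 447 CPM in Δmimi, against 816, 737 and 767 CPM in wild type (log2 fold change -0.55, edgeR adjusted p = 0.17). With the replicate block the adjusted p of edgeR was 0.000377 for Rh4 and 0.00203 for Rh3.

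Cuticle proteins build the corneal lens and the body wall. Cpr72Ec, a lens protein, had 250, 221 and 229 CPM in Δmimi, against 978, 699 and 1216 CPM in wild type. The Δmimi libraries lay close together below all wild-type libraries, and the log2 fold change was -2.05 ± 0.21 (SE), with an adjusted p of 0.00403 in edgeR. Crys, another lens protein, had 159, 184 and 115 CPM in Δmimi, against 68.2, 103 and 62.4 CPM in wild type, without a call (log2 fold change 0.97, edgeR adjusted p = 0.12, and 6.20e-05 with the replicate block). Cpr51A had 13.6, 19.5 and 14.6 CPM in Δmimi, against 1.82, 0.941 and 1.56 CPM in wild type, a log2 fold change of 3.46 ± 0.29 (SE) with an adjusted p of 0.00178 in edgeR. Of 37 cuticle protein genes tested, of 126 in the table, Cpr72Ec, Cpr51A and TwdlE (log2 fold change 3.04, lost in 5 fits) were the 3 calls, against 1.64% of all genes. With the replicate block 15 were higher and 6 lower, against 5.43% and 4.02% of all genes.

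Neuropeptides are signalling peptides cut from precursor proteins and released by small sets of neurons. Of 35 precursor genes tested, edgeR called 0 higher and 3 lower, against 0.86% and 0.778% of all genes. At an unadjusted p under 0.05 in edgeR, 1 was above 0 and 14 below 0, and DESeq2 called 1 and 7. With the replicate block 1 was higher and 16 lower, against 5.43% and 4.02% of all genes. The median was -0.55, against -0.01 for all genes, and 32 of the 35 lay below 0, against 51.3% of all genes. Between libraries of the same replicate number the median log2 ratio was -0.40, -0.43 and -0.59.

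Capa, the precursor of peptides that act on the renal tubules, had 16.7, 15.1 and 16.9 CPM in Δmimi, against 38.6, 33.6 and 40.6 CPM in wild type, a log2 fold change of -1.21 ± 0.13 (SE) with an adjusted p of 0.00403 in edgeR. Hug, the precursor of the feeding regulator hugin, had 13.3, 11.1 and 14.8 CPM in Δmimi, against 35.1, 27.0 and 33.4 CPM in wild type, a log2 fold change of -1.28 ± 0.16 (SE) with an adjusted p of 0.0101 in edgeR, and its call was lost without wild-type replicate 3. natalisin, a mating peptide, fell by 1.06 on the log2 scale and lost its call in 5 fits. Pdf, the peptide of clock neurons, was not called, with 26.4, 11.9 and 16.1 CPM in Δmimi and 46.3, 26.5 and 43.9 CPM in wild type (log2 fold change -1.09, edgeR adjusted p = 0.18, and 0.000408 with the replicate block). Replicate 2 was the lowest library of both genotypes for Capa, Hug and Pdf.

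Among 39 neuropeptide receptor genes tested, AstC-R1, a receptor for the somatostatin-like allatostatin C, was the 1 call, against 1.64% of all genes. At an unadjusted p under 0.05 in edgeR, 2 were above 0 and 7 below 0, and DESeq2 called 0 higher and 2 lower. With the replicate block 0 were higher and 5 lower, against 5.43% and 4.02% of all genes. The median was -0.21, and 29 of the 39 lay below 0, against 51.3% of all genes. AstC-R1 had 7.49, 2.28 and 5.88 CPM in Δmimi, against 30.0, 18.8 and 19.5 CPM in wild type, a log2 fold change of -2.11 ± 0.39 (SE) with an adjusted p of 0.0491 in edgeR, lost in 4 fits. sNPF-R, the receptor for a feeding peptide, was not called (log2 fold change -0.61, edgeR adjusted p = 0.0801, and 0.00428 with the replicate block).

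General neuronal genes lay slightly lower without calls in edgeR. edgeR and DESeq2 called 0 of 19 pan-neuronal genes, and 0 had an unadjusted p under 0.05. Their median was -0.24 and 18 of 19 lay below 0. For 36 genes of synaptic vesicles and release the median was -0.23, edgeR and DESeq2 called 0, and 2 had an unadjusted p under 0.05. Of these 36, 35 lay below 0, and the replicate block called 1 lower, against 4.02% of all genes. For 36 voltage-gated and leak channel genes the median was -0.21, and 30 lay below 0. Of the channel genes edgeR called 0, DESeq2 1 lower and the replicate block 3 lower. For 25 cAMP and calcium signalling genes of memory the median was -0.04. For 22 glial genes the median was -0.09. The sum of pan-neuronal genes was 12377, 9059 and 8381 CPM in Δmimi and 14358, 10588 and 11693 CPM in wild type. The genotypes overlapped (exact permutation test without pairing, two-sided, p = 0.3), while for each of the 3 replicate numbers the sum was lower in Δmimi. The part of neuronal content in the lower neuropeptide levels was not tested. Without wild-type and Δmimi libraries in turn the pan-neuronal median ranged between -0.50 and -0.04.

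Genes of dividing cells and of the oocyte lay higher. DNA replication and mitosis genes are low in the adult head, where most cells no longer divide, and the maternal germline genes are read in the ovary. Of 73 replication and mitosis genes tested, edgeR called 0, with 46 above 0 and 0 below 0 at an unadjusted p under 0.05. DESeq2 called 24 higher and 0 lower. The replicate block called 35 and 0, against 5.43% and 4.02% of all genes. Their median was 0.97, and 68 of 73 lay above 0. Of 48 germline genes tested, of 61 in the table, 3 were called higher and 0 lower, against 0.86% and 0.778% of all genes. At an unadjusted p under 0.05 in edgeR, 30 were above 0 and 0 below 0, and DESeq2 called 21 and 0. The replicate block called 28 and 0, against 5.43% and 4.02% of all genes. Their median was 1.08, and 45 of 48 lay above 0.

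The size of this difference varied with the replicate number. Between libraries of number 1, 2 and 3 the median log2 ratio was 0.18, 1.05 and 1.42 for replication genes and 0.33, 1.04 and 1.55 for germline genes. Without Δmimi replicate 1, edgeR called 29 replication genes and 20 germline genes higher, and in the other 5 fits without 1 library it called 0 replication genes and 2 or 3 germline genes. CycB, a mitotic cyclin, had 35.5, 90.1 and 152 CPM in Δmimi, against 17.7, 26.1 and 16.8 CPM in wild type. The Δmimi libraries differed among themselves by more than the lowest of them differed from wild type, and the gene was not called (log2 fold change 2.19, edgeR adjusted p = 0.0919, and 0.000916 with the replicate block). tum, a subunit of the cytokinesis complex, had 5.96, 11.6 and 19.5 CPM in Δmimi, against 3.37, 3.36 and 2.42 CPM in wild type (log2 fold change 1.99, edgeR adjusted p = 0.0854, and 0.00364 with the replicate block). wisp, the poly(A) polymerase of the oocyte, had 7.03, 16.9 and 25.4 CPM in Δmimi, against 3.65, 3.09 and 3.80 CPM in wild type (log2 fold change 2.22, edgeR adjusted p = 0.0704, and 0.000962 with the replicate block). In each of these genes Δmimi replicate 1 was the Δmimi library nearest to wild type.

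Of the called germline genes, qin, a Tudor-domain protein of the piRNA pathway, had 21.1, 15.6 and 19.5 CPM in Δmimi, against 5.47, 5.11 and 3.46 CPM in wild type, a log2 fold change of 1.99 ± 0.22 (SE) with an adjusted p of 0.00536 in edgeR. SoYb, another Tudor-domain protein of that pathway, had 13.9, 9.48 and 12.5 CPM in Δmimi, against 2.95, 1.75 and 2.08 CPM in wild type, a log2 fold change of 2.40 ± 0.27 (SE) with an adjusted p of 0.00621 in edgeR. In both genes replicate 1 was the highest Δmimi library. Both stand in the germline list. A separate list of 17 genes of the piRNA and siRNA machinery holds neither of them, so its counts do not cover the whole pathway. In it edgeR, DESeq2 and the replicate block called 0. At an unadjusted p under 0.05 in edgeR, 2 were above 0 and 0 below 0, and the median was 0.02. clos, with 6.27, 15.3 and 16.7 CPM in Δmimi and 1.26, 2.82 and 2.25 CPM in wild type, lost its call in 5 fits. The summed eggshell list, which lacks clos, had 6.27, 7.03 and 7.59 CPM in Δmimi and 6.73, 15.2 and 5.36 CPM in wild type. Summed germline genes had 2333, 2515 and 2608 CPM in Δmimi and 2031, 1840 and 1931 CPM in wild type. The part of ovary tissue in the germline levels was not tested.

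**Figure D5:**
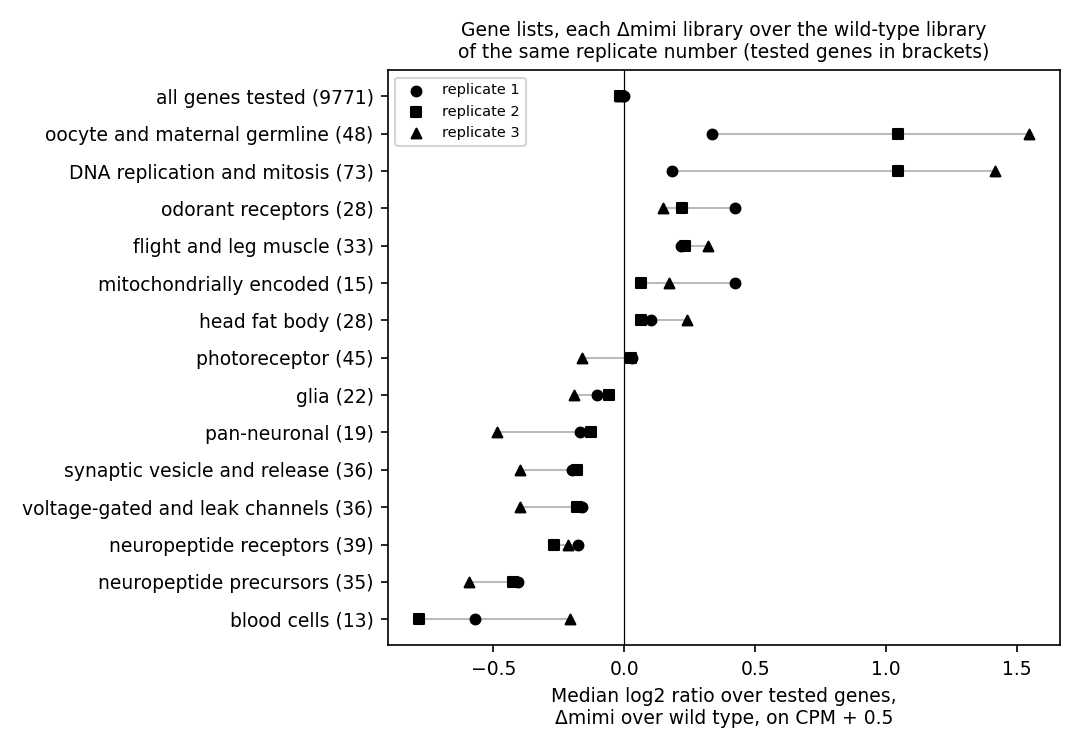
Median log2 ratio (on CPM + 0.5) over the tested genes of each list, each Δmimi library over the wild-type library of the same replicate number. Replication and germline genes lie above 0 for all 3 numbers, with 0.18 and 0.33 for number 1. Neuropeptide precursors lie below 0 for all 3, between -0.59 and -0.40.

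Some called enzymes belonged to no list, and those named here, apart from tobi, were chosen after their values were seen. tobi, an alpha-glucosidase of the fat body that responds to brain insulin, had 1.38, 2.99 and 1.33 CPM in Δmimi, against 26.1, 57.5 and 15.4 CPM in wild type. Replicate 2 was highest in both genotypes, and the log2 fold change of -4.12 ± 0.59 (SE) with an adjusted p of 0.0176 in edgeR lost its call without Δmimi replicate 3. Mal-B1, a maltase, rose by 1.16 on the log2 scale and lost its call in 4 fits. Adh, alcohol dehydrogenase, had 33.8, 30.6 and 31.9 CPM in Δmimi, against 6.17, 9.41 and 6.57 CPM in wild type, a log2 fold change of 2.11 ± 0.18 (SE) with an adjusted p of 0.00186 in edgeR. Adk3, an adenylate kinase, had 30.0, 36.4 and 28.8 CPM in Δmimi, against 92.1, 94.2 and 78.2 CPM in wild type, a log2 fold change of -1.48 ± 0.14 (SE) with an adjusted p of 0.00267 in edgeR. CROT, a carnitine acyltransferase, rose by 1.09 and the hexosaminidases Hexo1 and Hexo2 fell by 0.82 and 0.63 on the log2 scale, with calls lost in 4, 4 and 6 fits. alpha-Est8, a carboxylesterase, fell by 0.84 on the log2 scale and lost its call in 2 fits.

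Genes of cilia and of DNA repair were grouped after their values were seen, so their counts of calls cannot be read as an excess. The only ciliated cells of the fly head are sensory neurons, and motile cilia of the fly are those of the auditory neurons and sperm. Beside Root, Dhc98D and Dnaaf3 were called among 30 cilium genes tested, against 1.64% of all genes. Dhc98D, an axonemal dynein heavy chain, had 3.21, 5.62 and 4.18 CPM in Δmimi, against 45.7, 38.7 and 45.5 CPM in wild type, a log2 fold change of -3.32 ± 0.20 (SE) with an adjusted p of 0.000679 in edgeR. Dnaaf3, a factor that assembles such dyneins, had 7.64, 5.62 and 7.21 CPM in Δmimi, against 1.54, 1.48 and 1.38 CPM in wild type, a log2 fold change of 2.20 ± 0.26 (SE) with an adjusted p of 0.00696 in edgeR. The motor chain was lower and its assembly factor higher, and the median of the list was 0.25.

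Of 36 DNA repair and telomere genes tested, in a list chosen after its values were seen, 4 were called higher and 1 lower. Of all genes 0.86% and 0.778% were called. The replicate block called 6 and 2, against 5.43% and 4.02% of all genes. rec, the MCM8-type protein of meiotic crossing over, had 22.9, 20.7 and 20.3 CPM in Δmimi, against 2.95, 2.42 and 3.80 CPM in wild type, a log2 fold change of 2.81 ± 0.20 (SE) with an adjusted p of 0.000931 in edgeR. HipHop, which caps chromosome ends, had 17.3, 20.7 and 22.2 CPM in Δmimi, against 5.75, 6.05 and 5.36 CPM in wild type, a log2 fold change of 1.80 ± 0.16 (SE) with an adjusted p of 0.00228 in edgeR. The fly's light-driven repair enzymes differed in opposite directions, with phr6-4, which acts on one kind of ultraviolet lesion, higher by a log2 fold change of 2.74 and phr, which acts on the other kind, lower with a log2 fold change of -1.05. Their calls were lost in 3 fits each, and that of FANCI, a Fanconi anaemia protein at 1.98, in 2.

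Noncoding RNAs were read by class. Of 129 long noncoding RNA genes tested, 2 were called higher and 3 lower, mimi included, against 1.64% of all genes called in either direction, and of 71 antisense RNA genes 0 were called higher and 4 lower in edgeR, with 3 above 0 and 9 below 0 at an unadjusted p under 0.05. DESeq2 called 2 and 4 of the antisense RNAs. lncRNA:CR32553 had 40.5, 34.6 and 40.2 CPM in Δmimi, against 4.07, 4.17 and 6.05 CPM in wild type, a log2 fold change of 3.02 ± 0.18 (SE) with an adjusted p of 0.000679 in edgeR. asRNA:CR45822 and asRNA:CR45835 lie within 20 kb of each other on chromosome 3L (7355717 to 7356598 on the plus strand, 7361639 to 7363598 on the minus strand). The first had 1 read in 1 Δmimi library and 0 in the other Δmimi libraries, against 17.1, 12.9 and 12.1 CPM in wild type, at least 27.1-fold lower. The second had 0.153, 0.703 and 0 CPM in Δmimi, against 18.7, 14.1 and 16.9 CPM in wild type (edgeR adjusted p = 0.00226). Whether the counting used strand is not given in the sources used here, so reads of an antisense RNA and of the gene opposite it may be mixed.

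The 2 hairpin RNAs tested, precursors of endogenous small interfering RNAs, were both higher and lie within 20 kb of each other on 3L. hpRNA:CR33940 (19486745 to 19488439) had 23.8, 29.0 and 23.2 CPM in Δmimi, against 1.12, 2.29 and 1.38 CPM in wild type, a log2 fold change of 3.96 ± 0.26 (SE) with an adjusted p of 0.000862 in edgeR. hpRNA:CR32207 (19477329 to 19478720) rose by 4.07 on the log2 scale (SE 0.32). Both calls held without any 1 library.

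U2 small nuclear RNA is a core part of the spliceosome and comes from several nearly identical genes. snRNA:U2:34ABa (chromosome 2L, 13211925 to 13212116) had 815, 879 and 748 CPM in Δmimi, against 262, 288 and 299 CPM in wild type, a log2 fold change of 1.52 ± 0.13 (SE) with an adjusted p of 0.00179 in edgeR. The neighbouring copy snRNA:U2:34ABb had 10.9, 11.8 and 11.6 CPM in Δmimi, against 17.5, 20.3 and 18.8 CPM in wild type, and lost its call in all 6 fits. Summed over the 5 U2 genes tested, Δmimi had 838 ± 67.5 CPM and wild type 315 ± 20.2 CPM (SD, n = 3 each). Reads shared by the copies can be split or lost in counting, so the single copies are uncertain. The summed small nuclear RNAs of all kinds overlapped, with 10570 to 10983 CPM in Δmimi and 10873 to 12296 CPM in wild type.

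For 8 called genes one genotype had 3 reads or fewer in each library. With Δmimi at this limit, CG43291 was at least 8.33-fold lower, asRNA:CR44291 at least 11.1-fold, eater at least 6.41-fold and the ribosomal pseudogene 28SrRNA-Psi:CR40741 at least 9.35-fold, beside asRNA:CR45822. With wild type at the limit, lncRNA:CR32385 was at least 16.8-fold higher and Argk2, an arginine kinase, at least 7.83-fold, beside Cyp4p2. The calls of eater and 28SrRNA-Psi:CR40741 were lost in 2 and 4 fits and that of CG43291 without wild-type replicate 3. Neither eater nor 28SrRNA-Psi:CR40741 could be tested in all 6 fits without 1 library, and the same holds for Cyp4p2 and Argk2.

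Of the called genes, 71 belonged to at least 1 of the 55 lists of families and tissues. Of the 3120 tested genes known by a CG number alone, 57 were called. Of these 26 were higher and 31 lower, against 0.86% and 0.778% of all genes. CG3397 had 0.611, 0.527 and 0.569 CPM in Δmimi, against 10.5, 18.4 and 12.5 CPM in wild type, a log2 fold change of -4.55 ± 0.34 (SE) with an adjusted p of 0.00123 in edgeR. CG14329 had 17.7, 10.9 and 17.3 CPM in Δmimi, against 0.842, 0.672 and 1.38 CPM in wild type, a log2 fold change of 3.99 ± 0.34 (SE) with an adjusted p of 0.00179 in edgeR. CG13793 had 52.7, 79.6 and 49.0 CPM in Δmimi, against 8.98, 10.8 and 6.92 CPM in wild type, a log2 fold change of 2.75 ± 0.25 (SE) with an adjusted p of 0.00221 in edgeR. These genotypes did not overlap, and the calls held without any 1 library.

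Heat shock genes gave 1 call among 31 tested, against 1.64% of all genes. Hsp70Bb, an inducible chaperone from a set of nearly identical copies, had 11.6, 21.6 and 7.59 CPM in Δmimi, against 1.54, 3.36 and 2.42 CPM in wild type, a log2 fold change of 2.47 ± 0.45 (SE) with an adjusted p of 0.0495 in edgeR, and its call was lost in all 6 fits. The small chaperones Hsp27, at 1.67, and Hsp26, at 1.41, were not called (edgeR adjusted p = 0.0624 and 0.0975, and 0.000221 and 0.000206 with the replicate block). With the replicate block 5 of 31 heat shock genes were higher and 1 lower, against 5.43% and 4.02% of all genes.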

How the data were processed

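Total RNA of head lysate was depleted of ribosomal RNA, and the authors made stranded libraries, mapped the reads and assigned them to genes in the snakePipes workflow. Per the labels, STAR, Subread, featureCounts, DESeq2 and the build dm6 were used; versions and the strand setting are not given in the sources used here. The deposited values are whole-number counts per gene for 17558 genes, without normalization, and 0 value columns were left unused. Genes were named from Ensembl release 115 (BDGP6), which matched 17252 identifiers and missed 306; the authors counted on an earlier release.

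Counts of the 6 lysate libraries were analysed in edgeR (version 4.0.16, R version 4.3.3) by its quasi-likelihood F test, with TMM factors, genotype as the only term and a base mean above 10, and Benjamini-Hochberg adjustment. The SE of a log2 fold change is its size over the square root of F. Calls needed an adjusted p below 0.05 and a log2 fold change beyond 0.5 in either direction. The script was tested on simulated data. Single values per library were compared by exact permutation tests in scipy version 1.17.1. Members and lists were chosen with earlier results of these data known. The rule for named genes took mimi and its neighbours within 50 kb, the 15 called genes with the largest and the 15 with the lowest log2 fold change, the 10 called genes with the highest CPM, up to 6 called members of a list, the 2 members with the lowest p of a list with fewer than 2 calls, and genes the study names. It gave 77 of the 118 genes named; 100 other genes that it took are not named. The remaining 41 were chosen after their values were seen: the 24 called genes Adh, Adk3, CG10514, CG10550, CG11892, CG13793, CG31436, CG40191, CR40190, CROT, Cyp305a1, Cyp4p3, Cyp6a22, Cyp6a8, Cyp6d2, Cyp9b2, Cyp9h1, Hexo1, Hexo2, Mal-B1, Yeti, alpha-Est8, dpr21 and l(2)41Ab, and the 17 genes without a call AttA, BckdhB, BomS6, CHKov1, CycB, Cyp6a19, Cyp6a23, GstD1, Hsp26, Lsp1alpha, Lsp1gamma, NimC1, Orco, Rh3, TotC, rl and wisp.

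Deviations from the group mean correlated at 0.66, 0.73 and 0.31 between the genotypes for numbers 1, 2 and 3 over 9771 genes. Between unlike numbers the correlation ran from -0.65 to 0.20, the highest for Δmimi replicate 1 with wild-type replicate 3. Pairing by number was thus least clear for number 3. Labels describe the replicates as separate samples, and p-values measure the spread between these preparations. Replicates of one genotype differed beyond counting noise (chi-square per degree of freedom 8.69 to 48.8 in 6 pairs). Alternatives were the replicate block, DESeq2 version 1.42.0, other scalings and filters, all 18 libraries in one fit, a floor of 5 counts and leaving out each library.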

Additional observations from a re-analysis of the deposited data

How the results depend on the processing

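Counts of genes called higher and lower changed with the fit, and the cause was not tested. Against 84 higher and 76 lower genes, the replicate block gave 531 and 393, DESeq2 248 and 185, and the fit to all 18 libraries 291 and 204. DESeq2 size factors in edgeR gave 82 and 70, and library totals without TMM 87 and 76. Without the filter on low counts, 14590 genes were tested and 125 and 95 called, and with a base mean above 50, 7998 were tested and 57 and 46 called. Leaving out 1 library gave 43 to 187 higher and 26 to 80 lower genes. The share of higher genes among the calls was 57.5% with the block, 58.8% with all libraries and 70.04% without Δmimi replicate 1. Of the 160 calls, the block and DESeq2 kept all 160, DESeq2 size factors lost 8, library totals 10 and the absent filter 3. The higher base mean kept 103 of the 118 it could test. Leaving out 1 library lost between 28 and 87 calls. With a floor of 5 counts in place of 3, the calls with Δmimi at the floor were 9 in place of 5, and those with wild type at the floor 8 in place of 3. The log2 fold change of mimi was between -6.71 and -6.39 when a library was left out. With 3 libraries a genotype, changes under 2-fold in genes of low count are often not detectable.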
